A study of Mus musculus with 11 samples.

Results

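The cells described here are young excitatory neurons of the mouse dorsal cortex at E14.5, picked by the UMIs they carried for Nrp1, Rnd2 and Ndst3. Nrp1 encodes neuropilin-1, the semaphorin-binding receptor that works together with plexins. Rnd2 encodes an atypical small GTPase of the Rnd family, and Ndst3 an enzyme that removes acetyl groups from heparan sulfate and adds sulfate. Barcodes were kept from 1000 genes upward and up to 10% of mitochondrial UMIs, and a kept cell was a gated neuron when it had at least 6 UMIs of Nrp1, Rnd2 and Ndst3 together, at least 2 of Neurod6, at most 2 each of Neurod1, Eomes and Hs3st4, at most 1 of Tfap2d and at most 1 of Dlx1, Dlx2, Dlx5 and Dlx6os1 together. This gate found 2557 cells among 16335 kept cells. The gate rests on measured values, so the levels of its genes in these cells are a description and were not tested.

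New excitatory neurons of the cortex leave the ventricular zones, pass through a multipolar phase and then move outward along radial glia to the cortical plate. Proneural factors drive Rnd2 in newborn neurons, and the GTPase is known for its part in the exit from the multipolar phase. Semaphorins read through neuropilins and plexins orient the moving cells and their axons, and heparan sulfate chains, shaped by Ndst enzymes, hold guidance ligands at the cell surface.

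Dorsal cortex was dissected from 2 littermate embryos of C57BL/6 background, 1 WT and 1 Syncrip cKO, and each gave 1 single-cell library. Syncrip encodes an RNA-binding protein. In the cKO, loxP sites flank exons of Syncrip and Emx1-Cre, which is active in dorsal telencephalic progenitors and their progeny, removes them. Cells of the ganglionic eminences lie outside that domain. Neural progenitor cell (NPC) cultures from E14.5 mice, 3 WT and 3 Syncrip cKO, were sequenced in bulk, and the study uses the name cKO for the Emx1-Cre line, while the labels of the cultures do not name a Cre. From the WT embryo, the library kept 7554 of 8289 barcodes with a median of 12277 UMIs per cell, and the cKO library kept 8781 of 9659 with a median of 11566. The number of recovered cells stated in the study's methods is below the barcodes in either library, and the removal of low-quality cells described there was not repeated here. The 2 libraries shared 22 barcode sequences. The embryos differed in sex, with 1 Xist UMI in the gated neurons of the WT library and 11439 in those of the cKO library, and 1285 Uty UMIs against 1. With 1 embryo per genotype there was no test between genotypes, and genotype cannot be told apart from sex, dissection or the embryo itself. Intervals cover counting error only.

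Gated neurons were a smaller part of the cKO library. They numbered 1526 in WT, 20.2% of kept cells (exact binomial 95% interval 19.3 to 21.1), and 1031 in cKO, 11.7% (11.1 to 12.4). Their depth was close, with medians of 13367 UMIs and 4246 genes per cell in WT and 12524 UMIs and 4090 genes in cKO. When each cell was thinned to 5000 UMIs, which left out 834 WT and 1011 cKO cells, the shares were 16.2% and 11.02%. Without called doublets they were 20.7% and 12.01%. Fewer cells of a kind and less RNA of the gate's genes per cell give the same count.

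The terms of the gate did not weigh alike on the libraries. Neurod6, a bHLH factor of differentiating excitatory neurons, reached 2 UMIs in 71.5% of WT and 65.6% of cKO cells. Of those cells, 71.8% in WT and 67.2% in cKO stayed at or under 2 UMIs of Neurod1, which marks newborn neurons. The limits on Eomes, Hs3st4, Tfap2d and the Dlx genes passed between 80.5% and 99.1% of the cells they met in either library. These 6 terms left 2689 WT cells, 35.6% of the library, and 2482 cKO cells, 28.3%. The last term separated the libraries most, since 56.7% of these WT cells (54.9 to 58.6) but 41.5% of these cKO cells (39.6 to 43.5) reached 6 UMIs of Nrp1, Rnd2 and Ndst3.

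**Figure D1:**
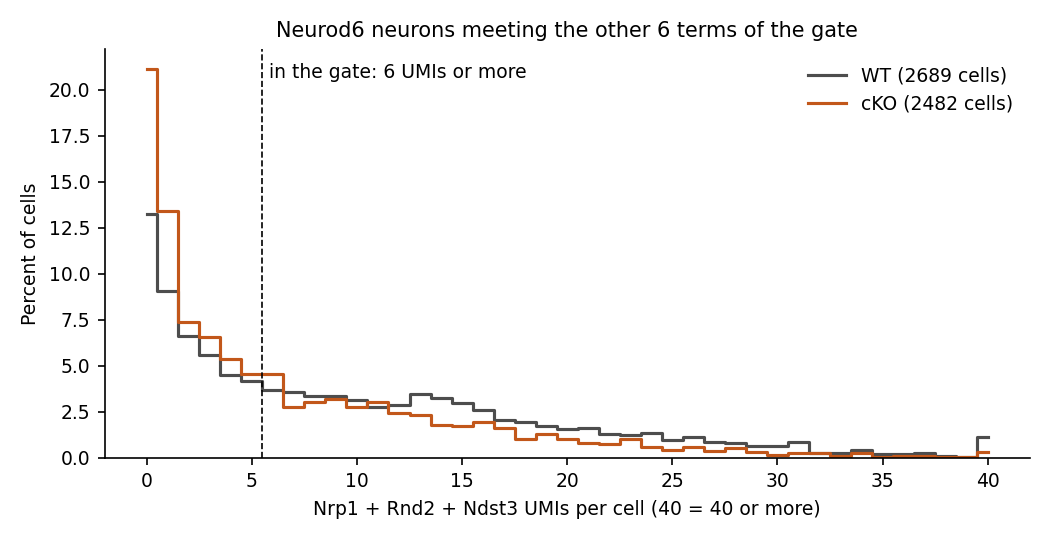
Distribution of summed Nrp1, Rnd2 and Ndst3 UMIs per cell (x axis; the last point holds cells with 40 or more) among the Neurod6 neurons that met the other 6 terms of the gate, as a percent of the cells of each library (y axis). The cKO line is higher from 0 to 6 UMIs and lower at nearly all points from 12 UMIs on, and the medians were 7 in WT and 4 in cKO.

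Of the 3 genes of that term, Nrp1 had the lowest ratio of cKO over WT. Among the Neurod6 neurons taken without the last term, the level of Nrp1 was 431 CPM (UMIs of a gene scaled to 1e+06 UMIs of the summed cells) in WT and 259 in cKO, a log2 ratio of -0.74. Rnd2 had 233 and 191 CPM in the same cells (-0.29), while Ndst3 had 74.9 and 75.03 CPM. In Neurod1-high neurons, which were chosen by Neurod1 and by no Nrp1 limit (at least 4 UMIs of Neurod1, 648 WT and 919 cKO cells), Nrp1 was level between the libraries at 732 and 710 CPM. In Eomes-high cells (at least 4 UMIs of Eomes), whose gene marks intermediate progenitors, Nrp1 was higher in the cKO library, at 245 CPM in WT and 308 in cKO. Cells just outside and just inside the limit, with 5 and 6 UMIs of the 3 genes, numbered 113 and 99 in WT and 113 and 113 in cKO. Their Neurod6 levels ran from 1249 to 1364 CPM, and their levels of Unc5d, a netrin and FLRT receptor of multipolar neurons, were 397 and 451 CPM in WT and 401 and 452 in cKO.

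The 6 marker genes lie on 5 chromosomes of mm10. Nrp1 is at chr8:128359073-128505462, Rnd2 at chr11:101464999-101471853, Ndst3 at chr3:123526166-123690853, Neurod6 at chr6:55677822-55681263, Klhl35 at chr7:99466004-99474022 and Dusp14 at chr11:84048041-84069261. Klhl35 encodes a kelch-like protein and Dusp14 a dual specificity phosphatase, and neither entered the gate. Gated neurons held 20.9 CPM of Klhl35 in WT (exact Poisson 95% interval 18.995 to 22.9) and 18.4 in cKO (16.2 to 20.8), 2.26-fold and 2.36-fold the level of all other cells. Dusp14 stood at 48.1 CPM in WT and 47.0 in cKO, 2.21-fold and 2.39-fold the other cells. Both genes, like Nrp1 and Ndst3, were higher still in Neurod1-high neurons, with 31.8 and 25.8 CPM of Klhl35 and 66.8 and 56.8 CPM of Dusp14. High levels of these markers were thus shared with neurons of high Neurod1, which the gate leaves out.

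**Figure D2:**
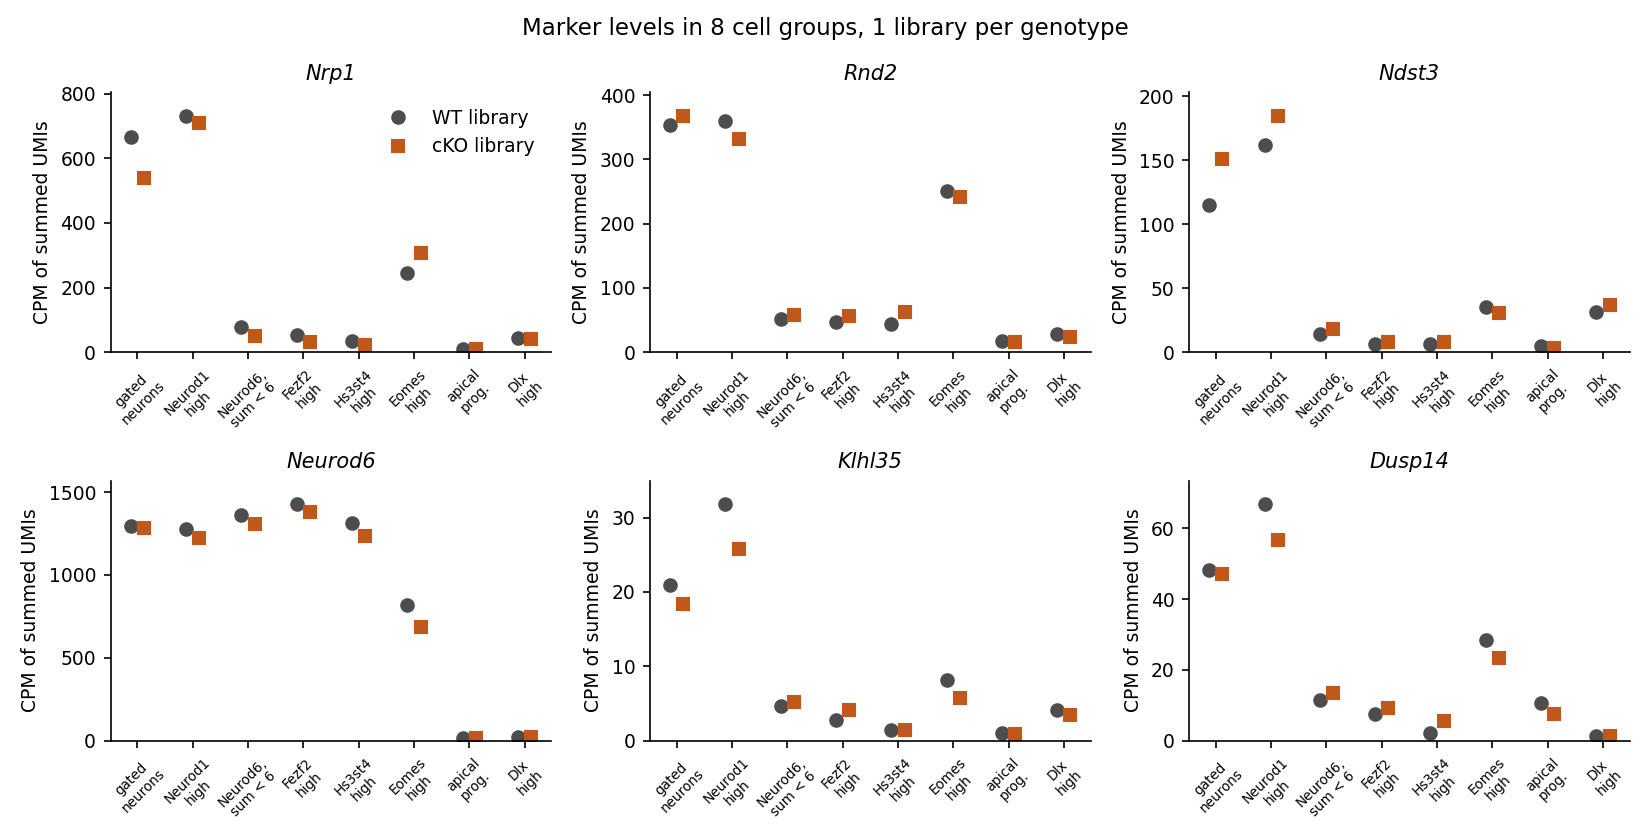
Levels of the 6 marker genes (y axis, CPM of UMIs summed over the cells of a group) in gated neurons and 7 other groups (x axis), with 1 point per library. Nrp1, Rnd2, Ndst3, Klhl35 and Dusp14 are high in gated and Neurod1-high neurons and low in Fezf2-high and Hs3st4-high neurons, apical progenitors and Dlx-high cells, while Neurod6, which most of the limits use, is at a like level in the neuron groups.

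Neurod6 and Nrp1 were used to choose these groups, so their levels are given as a description only. Fezf2-high and Hs3st4-high neurons needed at least 2 UMIs of Neurod6, as gated neurons did. Neurod6 was at 1293 and 1281 CPM in gated neurons of WT and cKO, at 1427 and 1381 in Fezf2-high neurons (572 and 654 cells with at least 2 UMIs of Fezf2, a factor of subcortical projection neurons, and at most 5 of the 3 gate genes) and at 1313 and 1237 in Hs3st4-high neurons (449 and 498 cells with at least 6 UMIs of Hs3st4). Nrp1 was at 54.4 and 31.2 CPM in the Fezf2-high neurons and at 33.8 and 23.7 in the Hs3st4-high neurons, against 664 and 538 in gated neurons, an order that the limits on the 3 gate genes set for the Fezf2-high neurons. Levels of Nrp1 in apical progenitors, gated by Sox2, Pax6 and Hes5, were 11.2 and 8.71 CPM. Movement of cells was not measured, so the word migrating in their label cannot be checked with these data.

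Gated neurons carried factors of cortical excitatory neurons, and their levels of the genes of other cells differed between lists. The proneural partner Neurod2 was at 678 and 728 CPM in WT and cKO, 1.88-fold and 1.93-fold the other cells. The repressor pair Bhlhe22 and Prdm8, which act together in cortical neurons, stood 2.46-fold and 2.35-fold, and 2.54-fold and 2.58-fold, above the other cells. All 10 genes of the interneuron list had UMIs in both libraries, but their sum was 16.4 CPM in WT and 24.0 in cKO, against 531 and 608 CPM in the other cells. The gate itself limits 4 of these 10, the Dlx genes. Of those it does not use, Gad2, a GABA synthesis enzyme, was at 2.95 and 4.52 CPM against 91.5 and 97.0 in the other cells. The 10 radial glia and cycling genes summed to 382 and 417 CPM, with Vim the most abundant, against 1788 and 2011 CPM in the other cells. The 7 intermediate progenitor genes, of which the gate limits Eomes, summed to 510 and 528 CPM against 865 and 818 CPM in the other cells, and Insm1, a factor of delaminating progenitors and newborn neurons, gave 4915 of 11069 UMIs in WT and 3030 of 7246 in cKO. Insm1 was higher in gated neurons than in the other cells, at 226 against 138 CPM in WT and 221 against 118 in cKO.

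Upper and deep layer factors were both present in these cells. Bcl11b, which directs subcortical projection, was at 480 CPM in WT and 538 in cKO, 1.18-fold and 1.21-fold the other cells. Cux2, an upper layer homeodomain factor, was at 122 and 118 CPM, 1.06-fold and 1.08-fold the other cells. With cells thinned to 5000 UMIs (1502 WT and 1015 cKO gated neurons), a Bcl11b UMI was found in 79.8% of WT (77.6 to 81.8) and 86.3% of cKO cells (84.0 to 88.4), while the unthinned shares were 92.9% and 96.5%. A Cux2 UMI was found in 39.6% (37.1 to 42.1) and 41.3% (38.2 to 44.4) of the thinned cells, and in 57.9% and 61.3% without thinning. For comparison, Bcl11b was found in 6.07% of thinned apical progenitors in WT and 10.2% in cKO, and Cux2 in 6.51% and 6.74%. In thinned Dlx-high cells Bcl11b was found in 84.6% and 86.0%, and Cux2 in 55.2% and 55.4%. The part of free RNA in these shares was not tested.

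Against all other cells, 80 of 10088 genes with at least 200 UMIs in gated neurons (0.793%) were at least 2-fold higher in both libraries and 352 (3.49%) at least 2-fold lower. These counts hold genes that the gate set, with Nrp1, Rnd2 and Ndst3 among the higher ones and Neurod1, Eomes and Hs3st4 among the lower ones. Genes scarce in gated neurons are left out by the UMI minimum. Gate genes and this minimum also enter the counts against single groups below. Of the 80 higher genes, 7 were also at least 2-fold above Neurod1-high neurons. Against Neurod6 neurons with fewer than 6 UMIs of the 3 gate genes, 20 of the 80 were. Most of the 80 were thus not particular to gated neurons at that fold. Of the 15 genes with the highest ratio outside the gate, 8 are predicted or unnamed transcripts. Among the named ones, Cntn2, the axonal adhesion molecule TAG-1, was at 550 CPM in WT and 591 in cKO, 2.89-fold and 2.84-fold the other cells. Chrna7, the alpha7 nicotinic receptor subunit, was at 149 and 152 CPM. Adamts1 and Adamts2, secreted metalloproteases of the extracellular matrix, were at 23.2 and 20.4 CPM and at 20.6 and 10.8 CPM. The retinoid-binding protein Crabp1 had 23.3 and 20.9 CPM, and the formin Inf2 20.9 and 21.2 CPM. Slc4a4, a sodium bicarbonate cotransporter, had 109 CPM in WT and 40.8 in cKO, and was high against the other cells of its own library in both.

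The nearest group was the Neurod1-high neurons, from which 84 genes (0.833%) stood at least 2-fold higher and 71 (0.704%) at least 2-fold lower in both libraries. Among the genes of the lists, the higher ones included Robo1, a receptor for Slit, and Dab1, the adaptor of Reelin signaling. The lower ones included Nhlh1 and Nhlh2, bHLH factors of newborn neurons, Unc5d, and Sema3c, a secreted semaphorin. From Fezf2-high neurons the gated neurons differed in 298 genes above (2.95%) and 165 below (1.64%). Those above included Cux1, Cux2 and Pou3f2, factors of upper layer neurons, the guidance genes Plxna4, Nrp2 and Robo2, and Unc5d, and those below included the maturation genes Grin2b, Syt1, Mapt and Stmn2. Neurod6 neurons with fewer than 6 UMIs of the 3 gate genes gave 160 above (1.59%) and 137 below (1.36%). The vessel genes Cdh5, Kdr, Pecam1 and Rgs5 were among those above in both of these comparisons. A few barcodes held most UMIs of the vessel list, as given below. The counts were larger against Hs3st4-high neurons, with 633 above (6.27%) and 358 below (3.55%), Eomes-high cells, with 721 (7.15%) and 497 (4.93%), and Dlx-high cells, with 625 (6.2%) and 480 (4.76%). Apical progenitors were farthest of these 7 groups, with 1476 genes above (14.6%) and 1085 below (10.8%).

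Within the gated neurons, several genes followed the summed UMIs of Nrp1, Rnd2 and Ndst3 in both libraries. The cells were divided into those with 6 to 9, 10 to 14, 15 to 19 and at least 20 UMIs (377, 417, 304 and 428 WT cells, and 335, 307, 189 and 200 cKO cells). Unc5d stood at 603, 964, 1203 and 1785 CPM across these WT classes and at 540, 959, 1333 and 1808 CPM across the cKO classes. Plxna4, the plexin partner of neuropilin-1, went from 637 to 1058 CPM in WT and from 717 to 1335 in cKO between the lowest and the highest class. Sema3c went from 40.8 to 105 CPM in WT and from 41.6 to 98.3 in cKO. Neurod6 stayed between 1229 and 1346 CPM in all 8 classes. Median UMIs per cell lay between 12245 and 14291.5 in WT and between 11652 and 13138.5 in cKO, with the deepest cells in the highest class, and the part of depth in these orders was not tested.

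Stmn2, Mapt and Opcml ran the other way. Stmn2, a microtubule-destabilizing protein of growing axons, stood at 1103, 798, 648 and 573 CPM in WT and at 714, 536, 420 and 323 CPM in cKO. Mapt, which encodes tau, went from 394 to 186 CPM in WT and from 321 to 137 in cKO. Opcml, a GPI-anchored adhesion protein of the IgLON family, went from 871 to 481 CPM in WT and from 418 to 113 in cKO. The cKO level of Stmn2 and of Opcml was below the WT level in each of the 4 classes. Cells with 2, 1 and 0 Neurod1 UMIs gave an order of the same kind for some genes, with Unc5d at 1795, 1454 and 823 CPM and Nrp1 at 817, 708 and 585 CPM in WT. In cKO, Unc5d was at 1646, 1104 and 762 CPM and Nrp1 at 713, 548 and 441 CPM in these cells. Rnd2 did not keep the order, at 384, 401 and 315 CPM in WT and 374, 352 and 378 in cKO. Neither did Mapt in cKO, at 185, 236 and 231 CPM. Neurod1, Nrp1 and Rnd2 are gate genes, so their levels here are a description.

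**Figure D3:**
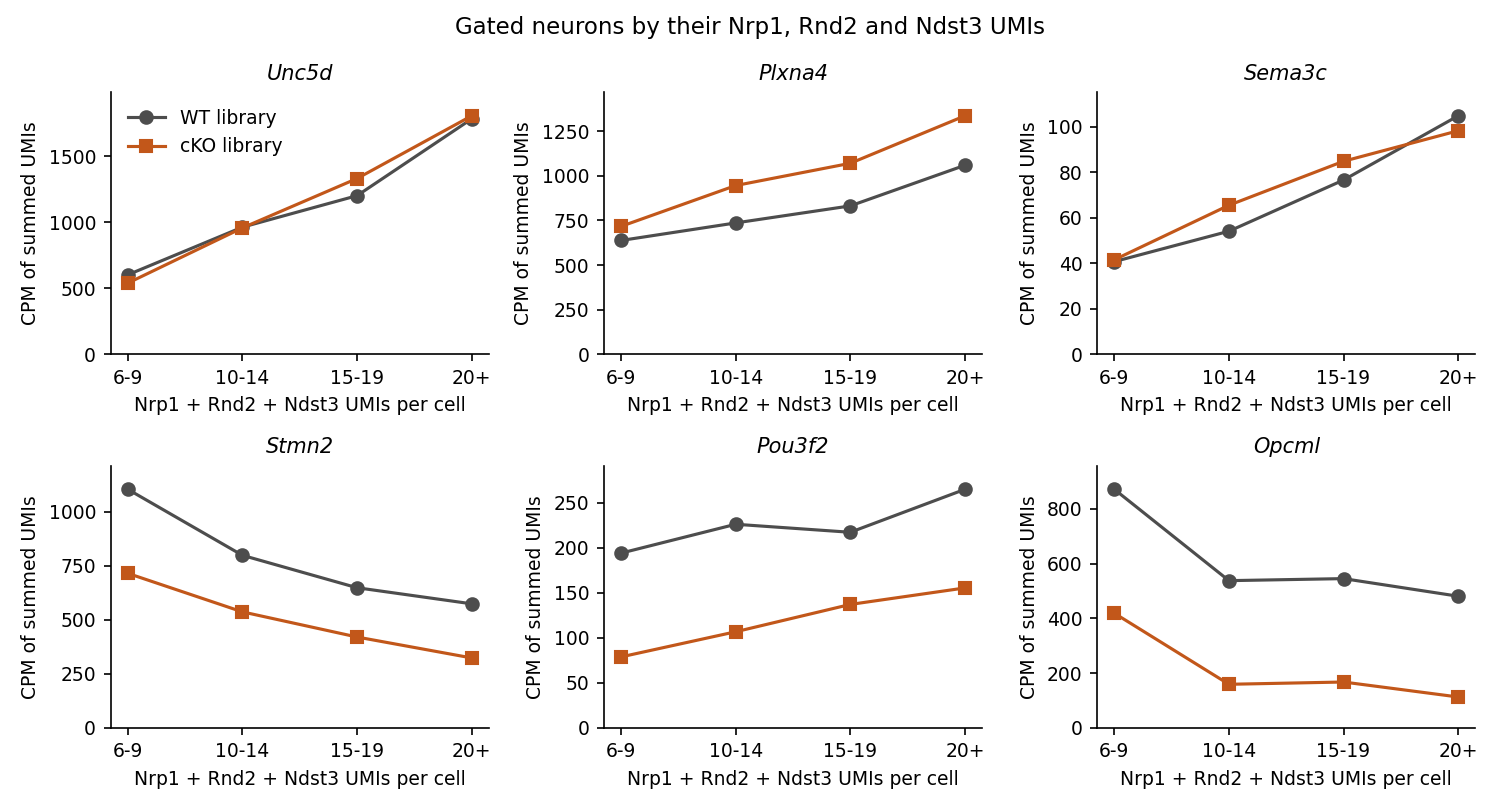
Levels of 6 genes (y axis, CPM of summed UMIs) in gated neurons divided by their Nrp1, Rnd2 and Ndst3 UMIs (x axis), with 1 line per library. Unc5d, Plxna4 and Sema3c are highest where the gate genes are highest, Stmn2 and Opcml lowest, and Pou3f2, Stmn2 and Opcml are lower in the cKO library in every class.

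The genotype libraries were then compared within the gated neurons. Past the fold means a ratio of CPM of at least 1.5 either way among genes with at least 200 UMIs over both libraries. Of 10088 genes, 106 (1.05%) were past the fold with a higher level in cKO and 149 (1.48%) with a lower level, and the median log2 ratio was -0.01. A small number of barcodes moved these counts. Gated cells with at least 10 UMIs of an endothelial and mural, microglia, meningeal fibroblast, red blood cell, Cajal-Retzius or interneuron list, or at least 20 of the radial glia and cycling list, are called mixed barcodes, and this limit was set after the data were seen. Without the 49 WT and 32 cKO mixed barcodes, 69 of 9742 genes (0.708%) were higher and 87 (0.893%) lower.

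In WT, 9 barcodes held 2416 of the 2512 endothelial and mural UMIs and 3 held 685 of the 822 microglia UMIs. In cKO, 2 barcodes held 9922 of the 11119 red blood cell UMIs and 5 held 674 of the 828 Cajal-Retzius UMIs. Every gene of these 4 lists had UMIs in gated cells of both libraries. Summed levels were 116 CPM in WT and 44.8 in cKO for endothelial and mural genes, 37.9 and 8.45 for microglia, 77.9 and 810 for red blood cells, and 22.2 and 60.3 for Cajal-Retzius cells, where Reln was the most abundant gene. Without the mixed barcodes these were 4.48 and 4.11, 5.9997 and 8.53, 71.7 and 89.4, and 12.8 and 11.6 CPM. The same lists chose the mixed barcodes, so the falls follow from that choice.

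Of 9 upper layer factors tested, 2 were past the fold lower in cKO and 0 higher, where 1.48% of all genes were lower and 1.05% higher. Their median log2 ratio was -0.30, against -0.07 for the same genes in Dlx-high cells. Without the mixed barcodes 3 were lower, against 0.893% of all genes. Pou3f2, a POU factor of upper layer neurons and their progenitors, had 229 CPM in WT and 114 in cKO, a log2 ratio of -1.01 (exact 95% interval -1.09 to -0.93). It was also lower in cKO in Neurod1-high (-0.71) and Fezf2-high neurons (-1.36) and in Dlx-high cells (-0.43), and level in apical progenitors (-0.05). In thinned gated neurons a Pou3f2 UMI was found in 57.5% of WT cells (54.9 to 60.0) and 36.6% of cKO cells (33.6 to 39.6), while in apical progenitors the shares were 57.3% and 57.5%. Mef2c, a MADS-box factor of maturing neurons, had 143 and 90.1 CPM (-0.67), and Rorb, a layer IV nuclear receptor, had 57.0 and 38.5 CPM (-0.56, and -0.59 without the mixed barcodes). Cux1 (-0.30) was within the fold. Cux2 (-0.05), Lhx2 (0.06) and Pou3f1 (0.07) were level.

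Deep layer factors were split. Of 8 genes tested, 2 were past the fold lower (1.48% of all genes) and 0 higher (1.05%), and the median log2 ratio was 0.15. Tbr1, a T-box factor of corticothalamic neurons, had 93.7 CPM in WT and 122 in cKO (0.38, interval 0.29 to 0.48), and Sox5, a SoxD factor of early-born neurons, 1821 and 2256 CPM (0.31). Bcl11b (0.16) and Tle4 (0.19) were nearer to 0, and Fezf2 was at -0.18. All of these lay within the fold. The 2 genes past it were Ldb2, a LIM domain-binding cofactor, at 137 and 85.4 CPM (-0.69), and Zfpm2, a GATA cofactor of corticothalamic neurons, at 49.7 and 26.0 CPM (-0.93). Ldb2 was level when the gate was applied without its term on Nrp1, Rnd2 and Ndst3 (0.02).

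**Figure D4:**
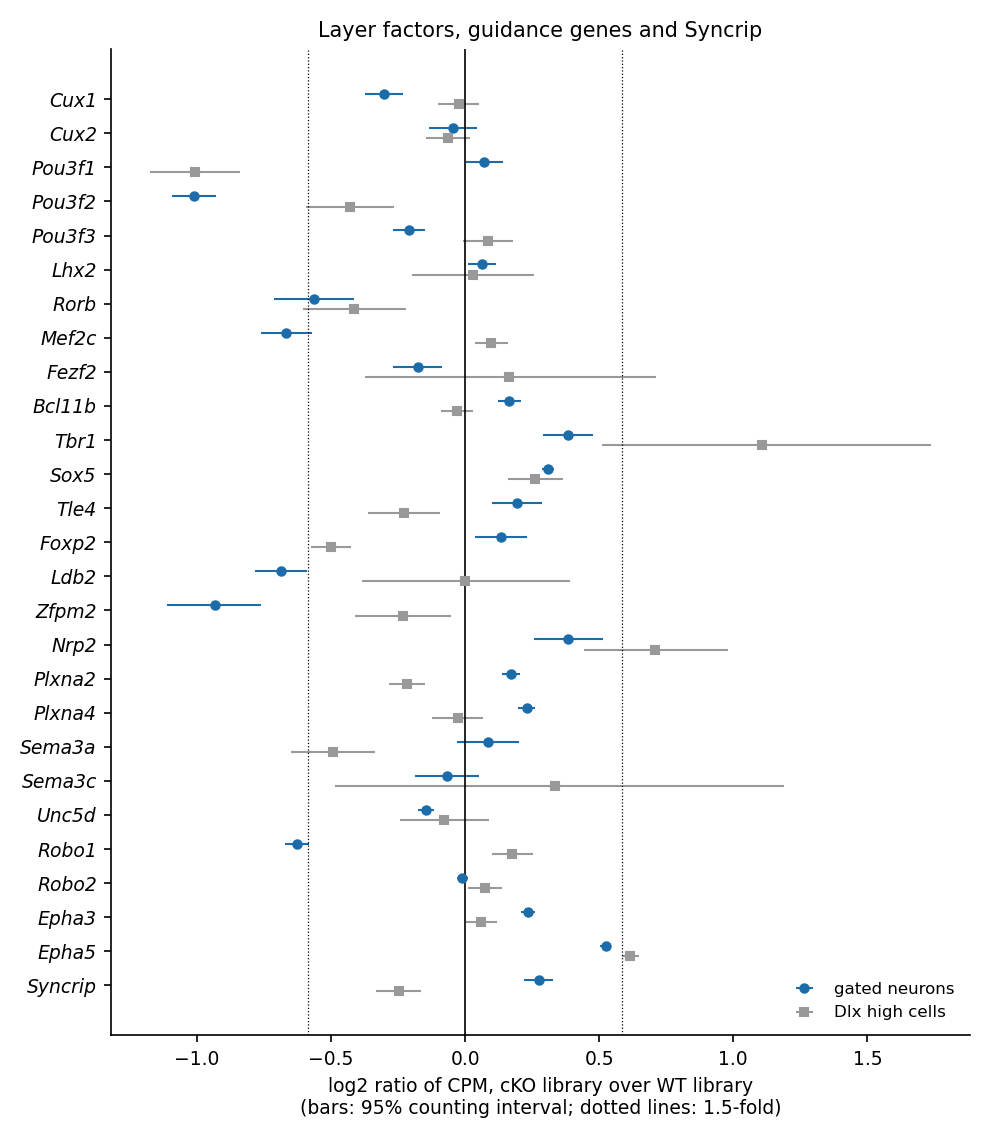
Log2 ratio of CPM in the cKO library over the WT library (x axis) for layer factors, guidance genes and Syncrip (y axis), in gated neurons (circles) and in Dlx-high cells (squares), which lie outside the Emx1-Cre domain. Bars are exact 95% counting intervals and dotted lines mark 1.5-fold; in gated neurons Pou3f2, Mef2c, Ldb2, Zfpm2 and Robo1 lie left of the lower line.

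Of 8 neuropilin, plexin and semaphorin genes tested, 0 were past the fold either way in gated neurons, and the median log2 ratio was 0.09. Among all genes 1.05% were higher and 1.48% lower, so this count is near that share. Nrp1 is among the 8 genes tested, and the gate bounds it from below only in its sum with Rnd2 and Ndst3. Nrp1 had 664 and 538 CPM (-0.30) here, and a ratio past the fold (-0.74) in the Neurod6 neurons taken without that term. Its relative Nrp2 had 49.99 and 65.3 CPM (0.38), Plxna4 835 and 979 CPM (0.23), Plxna2 815 and 917 CPM (0.17), Sema3a 69.4 and 73.7 CPM (0.09) and Sema3c 71.7 and 68.5 CPM (-0.07).

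Among 14 guidance receptor genes tested, 1 was past the fold higher (1.05% of all genes) and 1 lower (1.48%). Robo1 had 633 CPM in WT and 410 in cKO (-0.63, interval -0.67 to -0.58), was lower in Neurod1-high (-0.50) and Fezf2-high neurons (-0.43) and stood at 0.18 in Dlx-high cells. Its paralog Robo2 was level at 2555 and 2537 CPM. Unc5a, a netrin receptor, had 7.65 and 12.2 CPM (0.67) from 166 and 167 UMIs. Without the mixed barcodes Unc5c, a second netrin receptor, was also past the fold lower (-0.87), which made 2 of 13 tested, against 0.893% of all genes. The most abundant members with a shift were the ephrin receptors Epha5, at 1796 and 2583 CPM (0.52) with 0.62 in Dlx-high cells, and Epha3, at 1157 and 1362 CPM (0.24). The netrin receptor Dcc was level at 1666 and 1662 CPM, and Unc5d stood at 1191 and 1077 CPM (-0.14).

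Of 10 heparan sulfate synthesis and editing genes tested and 7 core proteins, 0 were past the fold, with medians of -0.05 and 0.02. Among all genes 1.05% were higher and 1.48% lower, so a count of 0 is near that share. Ndst3, which the gate used, had 115 and 151 CPM (0.39), Ndst1 35.2 and 35.1 CPM, and the chain-elongating Ext1 244 and 232 CPM. Hs6st2, which adds 6-O sulfate and was 2.66-fold and 2.53-fold above the other cells, had 577 and 534 CPM (-0.11). The glypican Gpc6 had 238 and 284 CPM (0.25). Of the small GTPase genes, Rnd2 had 353 and 368 CPM (0.06), Rnd3 73.4 and 87.6 CPM (0.25) and Cdc42 341 and 284 CPM (-0.27), and 0 of 6 tested were past the fold.

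Of 15 microtubule and nucleokinesis genes, 0 were past the fold, and the median log2 ratio was -0.05. Among all genes 1.05% were higher and 1.48% lower, so this count is near that share. Dcx, which binds microtubules, had 628 and 588 CPM, Pafah1b1 (Lis1), a regulator of dynein, 324 and 307 CPM, and the tubulin Tuba1a 7352 and 7470 CPM. Stmn2 had 766 and 526 CPM (-0.54) and Mapt 260 and 222 CPM (-0.23). Across the 4 classes of summed gate genes, Stmn2 had log2 ratios of -0.63, -0.57, -0.63 and -0.83, past the fold in 3 of them, and Mapt was lower in cKO in each. Of 10 Reelin pathway genes, only Reln itself was past the fold (higher, against 1.05% of all genes), at 19.3 and 48.7 CPM (1.34). Without the mixed barcodes, which its own list helped to choose, the log2 ratio of Reln was -0.11. Its receptors Lrp8 (0.023) and Vldlr (-0.030) and the adaptor Dab1 (-0.10) were level. Of 8 neurogenic bHLH factors and partners tested, Nhlh2 alone was past the fold (higher, against 1.05% of all genes), at 17.1 and 27.5 CPM (0.69). Its log2 ratio was 0.37 without the mixed barcodes. Synapse and maturation genes had 0 of 10 past the fold, with Gria2, an AMPA receptor subunit, at 999 and 1023 CPM (0.034).

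The genes with the largest ratios by the naming rule were mostly those of the mixed barcodes. The 8 highest in cKO included Hba-a1, Hba-a2, Hbb-bs and Hbb-bt, whose log2 ratios of 3.59, 3.44, 3.19 and 3.95 became 0.45, 0.36, 0.29 and 0.24 without those barcodes, and Trpm3, a cation channel, which went from 2.47 to 0.44. The 8 lowest included C1qb, Cldn5, Pecam1, Egfl7, Klf2, Gng11 and Apoe, all of microglia or vessels except that several cell types express Apoe, Klf2 and Gng11, with ratios from -3.38 to -1.45. The globin genes, C1qb, Cldn5 and Pecam1 are on the lists that chose the mixed barcodes, so weaker ratios without those barcodes follow from that choice.

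Without the mixed barcodes, the highest ratio was that of Tafa1, which encodes a small secreted neural protein, with 3.59 CPM in WT and 39.8 in cKO, a log2 ratio of 3.47 (interval 3.11 to 3.84). Tafa1 was also higher in cKO in Dlx-high cells (2.26). Mthfd1l, a mitochondrial enzyme of one-carbon metabolism, had 93.9 and 264 CPM (1.49) in gated neurons, with 1.52 in Neurod1-high neurons and 0.46 in Dlx-high cells. Across the classes of summed gate genes, with all gated cells, its log2 ratio was 1.94, 1.35, 1.23 and 0.76 from the lowest class to the highest. Dpp10, an auxiliary subunit of potassium channels, had 18.3 and 52.6 CPM (1.52), with 0.19 in Dlx-high cells. Nr2f2, the nuclear receptor COUP-TFII, had 23.9 and 59.8 CPM (1.32), with 0.94 in Dlx-high cells. Slc15a2, Kctd8, C1ql3 and Slc24a2 had log2 ratios between 1.38 and 1.53.

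Of the lowest, Opcml had 596 CPM in WT and 243 in cKO (-1.29, interval -1.35 to -1.24), a like ratio in Neurod1-high neurons (-1.29) and -0.04 in Dlx-high cells. Slc4a4 had 110 and 38.0 CPM (-1.53), with -0.90 in Dlx-high cells. Dync1i1, a dynein intermediate chain, had 69.8 and 29.7 CPM (-1.23), and Cdkn1c, a cyclin-dependent kinase inhibitor of cells leaving the cycle, 107 and 48.8 CPM (-1.13). Ltbp1 had a ratio of -1.37. Rgs3 had -1.10 from 162 and 48 UMIs, and 0.12 in thinned cells. Diaph3, a formin, had -1.32, but -0.49 with the mixed barcodes, some of which were chosen by cycling genes, and Cdkn1c had -0.75 with them.

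Syncrip itself had 290 CPM in WT and 351 in cKO gated neurons, a log2 ratio of 0.27 (interval 0.22 to 0.33), and -0.25 in Dlx-high cells. The reads come from the 3′ end of transcripts, outside the deleted exons, so this level does not check the deletion. Of the dissociation and immediate early genes, which respond to cell handling, 3 of 5 tested were past the fold lower in cKO (1.48% of all genes): Fos at 37.7 and 20.6 CPM (-0.88), Egr1 at 25.8 and 13.04 CPM (-0.98) and Junb at 23.3 and 15.3 CPM (-0.60). Without the mixed barcodes 2 of 5 were (0.893% of all genes), with Fos at -0.64, Egr1 at -0.77 and Junb at 0.15. Their part in the other ratios was not tested.

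The marker genes could be tested in the NPC cultures, where replicates exist, although these are proliferating progenitor cultures and not the gated neurons. All 6 markers fell in the cKO cultures (edgeR's quasi-likelihood test, Benjamini-Hochberg adjustment over 14432 genes), in a comparison where 2843 genes (19.7%) rose and 2858 (19.8%) fell. In bulk RNA, fewer cells of a type and less RNA per cell cannot be told apart. Y-linked counts were 8899, 5903 and 1 in the WT cultures and 9232, 0 and 0 in the cKO cultures, so they were not balanced between genotypes. With a covariate from these counts, all 6 markers still fell. Nrp1 was at 60.8, 53.5 and 65.0 CPM in the WT cultures and at 37.0, 35.4 and 37.3 in cKO, which is a change of -0.70 on the log2 scale (SE 0.10, adjusted p = 8.69e-05). Rnd2 was at 245, 261 and 233 CPM and at 167, 163 and 178 CPM, with -0.53 (SE 0.08, adjusted p = 0.000127). Neither gene's groups overlapped, but the share of all genes without overlap was not counted.

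Neurod6 was at 15.3, 11.9 and 21.8 CPM in WT cultures and at 1.08, 0.518 and 1.11 in cKO, a change of -4.14 on the log2 scale (SE 0.28, adjusted p = 1.48e-07). Ndst3 was near the detection limit, with 41, 20 and 68 counts in WT and 11, 2 and 1 in cKO (-3.05, SE 0.59, adjusted p = 0.00107, and -4.57 without cKO replicate 1). Klhl35 (-1.75, SE 0.29, adjusted p = 0.00038) and Dusp14 (-0.79, SE 0.16, adjusted p = 0.00185) fell as well. Syncrip, counted over the whole gene, was at 78.5, 79.9 and 80.1 CPM in WT and at 90.0, 87.6 and 81.4 in cKO (0.13, adjusted p = 0.18), and this span includes the exons outside the deletion. Other neuronal genes fell in the same cultures, with Stmn2 at 348, 237 and 368 counts in WT and 3, 2 and 4 in cKO (-6.56, adjusted p = 8.22e-10) and Prdm8 at -3.99 (adjusted p = 1.63e-07). Of 6 neurogenic bHLH factors and partners tested, 4 fell and 1 rose, with a median log2 fold change of -2.10, where 19.8% of all genes fell and 19.7% rose. Of 9 radial glia and cycling genes, 6 rose and 2 fell, with a median of 0.75. All 10 genes of the dissociation and immediate early list, which includes the heat shock genes Hspa1a and Hspa1b, rose with a median of 3.26. The part of these shifts in the fall of the markers was not tested.

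**Figure D5:**
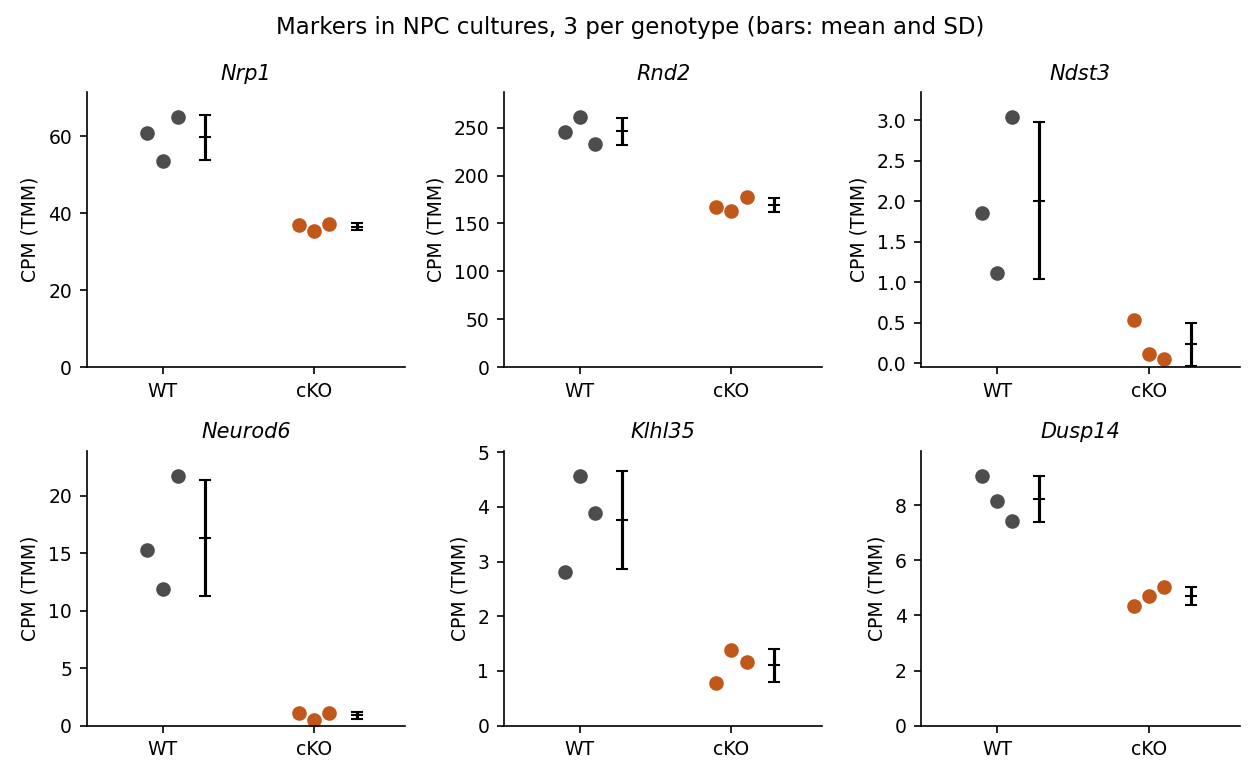
Levels of the 6 marker genes in each NPC culture (y axis, TMM-scaled CPM; x axis, genotype), with mean and SD of 3 cultures beside the points. The WT and cKO cultures do not overlap for any of the 6 genes, and the share of all genes without overlap was not counted.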

How the data were processed

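Dorsal cortex of 1 WT and 1 Syncrip cKO embryo (E14.5) was profiled by 10x 3′ scRNA-seq. Of these libraries the authors deposited Cell Ranger 7.0.0 matrices of UMI counts, limited to called barcodes and not normalized (version per the file headers, mm10 per the submitters' processing notes). For NPC cultures the authors deposited raw counts per gene after HISAT2 alignment to mm10, counted over whole gene spans as the listed lengths show; no source states the counting program or the strand setting. LACE-seq was not analysed here.

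Gated neurons and comparison groups were chosen by limits on raw UMIs. UMIs were summed per library and group and scaled to CPM by all UMIs of those cells. Intervals were exact (Poisson, binomial, conditional binomial, 95%), and checked on simulated counts. A count of 0 allows up to 3 counts. Scrublet, as built into scanpy 1.11.5, marked doublets (298 WT and 451 cKO of all barcodes with at least 200 genes) and removed only as an alternative. Cells were thinned to 5000 UMIs where shares of cells with a UMI are compared.

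The 6 cultures (16962903 to 22708400 counts) were compared with edgeR 4.0.16 in R 4.3.3 (TMM, filterByExpr, robust quasi-likelihood fit, adjusted p under 0.05), tested on simulated data. The labels do not say whether cultures came from separate embryos, so p-values measure the spread between cultures, which may be technical. No columns were left out. Some genes that the lists and the naming rule reach are not reported here.

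Named genes were the markers, Syncrip, genes of the lists, the 15 highest against other cells, and the 8 largest and 8 smallest cKO over WT ratios among genes with 200 UMIs (without predicted, sex, mitochondrial and gate genes). The same rule without the mixed barcodes was added after seeing the data. The members and lists were chosen with earlier results of these data known. Alternatives were other limits of the gate and filters, TMM factors, equal weight per cell, UMI minimums of 100 and 400, and, for the cultures, RLE, no filter, DESeq2 1.42.0, replicate numbers as blocks, sex as covariate and each culture left out.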

Additional observations from a re-analysis of the deposited data

Results flagged for a closer look

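Of 183 genes named in the text or on a list, 8 were flagged. A flagged gene had ratios of cKO over WT on opposite sides of 0 in gated neurons and in Dlx-high cells. Counting intervals were clear of 0 in both groups, and the gene had at least 200 UMIs in Dlx-high cells. A ratio past 1.5-fold in either group was also needed, except for Syncrip, which was let in by name. The share of all genes meeting these limits was not counted. With 1 library per genotype the difference between the cell groups was not tested.

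Syncrip had a log2 ratio of 0.27 in gated neurons and -0.25 in Dlx-high cells (2202 WT and 2448 cKO UMIs there). Robo1 had -0.63 and 0.18, and Mef2c -0.67 and 0.10. Pou3f1, a POU factor, had 0.072 in gated neurons and -1.01 in Dlx-high cells, from 744 and 489 UMIs. Top2a, a gene of cycling cells, had 1.01 and -0.32, with 0.77 in gated neurons without the mixed barcodes. Trpm3 had 2.47 and -0.44, and without the mixed barcodes 0.44 (0.14 to 0.73) in gated neurons. In thinned cells its ratio in gated neurons turned to just below 0, as given in the next section. Reln (1.34 and -0.30) and Apoe (-1.84 and 0.35) no longer had opposite directions without the mixed barcodes, where their ratios in gated neurons were -0.11 and 0.11. Reln and Top2a are on lists that chose those barcodes.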

How the results depend on the processing

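The share of gated neurons was lower in cKO under all 7 alternatives run. It was 21.7% in WT and 13.03% in cKO with at least 5 UMIs of Nrp1, Rnd2 and Ndst3, 17.6% and 9.68% with at least 8, 16.2% and 11.02% after thinning to 5000 UMIs, and 18.6% and 10.8% of cells with at least 200 genes. Counts of genes past 1.5-fold moved with depth and filters. There were 198 higher and 282 lower at a minimum of 100 UMIs, 61 and 75 at 400, 41 and 44 in thinned cells, and 69 and 87 without the mixed barcodes, of which 62 and 68 were among those called with them. Without the term on Nrp1, Rnd2 and Ndst3, 207 were higher and 172 lower. Ratios past the fold that turned direction were those of Apoe (0.11), C1qb (2.24), Egfl7 (0.038), Junb (0.15), Kdr (0.17), Reln (-0.11) and Rgs5 (0.85) without the mixed barcodes, of Egfl7 (0.18), Klf2 (0.35), Rgs3 (0.12) and Trpm3 (-0.024) in thinned cells, and of Ldb2 (0.021) without that term. C1qb, Kdr, Reln and Rgs5 are on lists that chose the mixed barcodes. The cause was not tested beyond the barcodes left out. In the NPC cultures, each of the 6 markers kept its direction and call under all 11 alternatives, and leaving out 1 culture gave 2068 to 3070 genes higher and 2040 to 3275 lower. With the replicate block 3189 rose and 3216 fell, and same-numbered cultures deviated together with correlations of 0.33, -0.02 and 0.07, so the numbers were not taken as pairs. Genes under 200 UMIs over both libraries were left out of the main counts as thinly sampled. Some ratios that turned rest on fewer UMIs. Without the mixed barcodes C1qb had 4 and 12 UMIs in WT and cKO, Egfl7 43 and 28, and Apoe 83 and 57. With 1 embryo per genotype the spread between embryos is unknown.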

Other observations

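Genes that the study discusses for progenitors were largely level in gated neurons, where 15 of 18 had enough UMIs and 1 was past the fold (Top2a, higher, against 1.05% of all genes). Without the mixed barcodes 13 had enough UMIs, and 0 were past the fold higher and 1 lower, against 0.708% and 0.893% of all genes. Top2a, whose ratio stayed past the fold, no longer had enough UMIs to be counted. It is on the radial glia and cycling list that helped to choose those barcodes. Nfib, a nuclear factor I gene, had 4012 CPM in WT and 4210 in cKO (0.07), and Nfix 1243 and 1018 CPM (-0.29), with -0.01 for Nfix in Dlx-high cells. Zbtb20, a zinc finger repressor, had 172 and 115 CPM (-0.58), and was past the fold at -0.68 without the mixed barcodes. Across the classes of summed Nrp1, Rnd2 and Ndst3 UMIs its log2 ratio was -0.04, -0.10, -0.50 and -0.94 from the lowest class to the highest. Of 9 hypoxia and glycolysis genes, 0 were past the fold, where 1.05% of all genes were higher and 1.48% lower. Their summed level was 632 CPM in WT and 621 in cKO.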
